A study of Homo sapiens with 55 samples.

Results

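The 9 genes described here are GADD45A, GADD45B and GADD45G, the 3 genes of the GADD45 family, together with DDB2, XPC, MDM2, RRM2B, TP53INP1 and FAS, which are known as targets of the transcription factor p53. They were taken as every probe whose annotated gene symbol was one of the 9, which gave 13 of the 48803 probes of an Illumina HumanHT-12 array, or 9 of the 18852 genes it names. Levels were read in 55 arrays of 2 related human cell lines. HEK293 is a line from embryonic kidney that carries adenovirus early genes, whose products bind p53, and the labels give its gonadotropin-releasing hormone (GnRH) receptor as undetectable. SCL60 is HEK293 carrying a stably transfected rat GnRH receptor, kept under the selection drug G418, and its receptor level is labelled high. All cells were grown on plates coated with Matrigel, an extract of basement membrane. Cells received 100 nM triptorelin, a peptide agonist of the GnRH receptor, or a propylene glycol vehicle as control. SCL60 cells were collected as controls at 0, 1, 8 and 24 h and after triptorelin for 0.5, 1, 2, 8 and 24 h. HEK293 cells were collected as controls at 0, 1 and 24 h and after triptorelin for 1 and 24 h. Each of the 14 groups had 4 arrays, except the SCL60 1 h controls, which had 3. The comparisons address which transcripts respond to the activated receptor and when.

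GADD45 proteins are small, acidic and mostly nuclear. They bind other proteins, among them the kinase MAP3K4 upstream of p38 and JNK, the replication clamp PCNA and the mitotic kinase CDK1, and they are induced by DNA damage and other stresses, with and without p53. The other 6 genes stand for different arms of the response to damaged DNA. DDB2 and XPC find lesions for nucleotide excision repair, MDM2 is the ubiquitin ligase that limits p53, RRM2B is a subunit of ribonucleotide reductase that makes deoxynucleotides outside S phase, TP53INP1 is a nuclear and autophagy protein that modulates p53 signalling, and FAS is a death receptor of the cell surface.

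The promoters of 3 genes are printed because their genes gave the clearest rise and falls after triptorelin, so they were chosen with the results known. Each run is the 250 bases upstream of the most upstream RefSeq start of the gene (build GRCh38.p14), 5′ to 3′ on the strand of the gene. Capitals mark matches to the motifs searched on both strands, which were the cAMP response element TGACGTCA, the AP-1 site TGANTCA, the EGR site GCGNGGGCG, the E-box CACGTG, the box CCAAT, the GC box with its letters GGGCGG, the TATA box with its letters TATAAA, an NF-kappaB site, a serum response element and a p53 half-site.
GADD45B, chr19:2475877-2476126, plus strand: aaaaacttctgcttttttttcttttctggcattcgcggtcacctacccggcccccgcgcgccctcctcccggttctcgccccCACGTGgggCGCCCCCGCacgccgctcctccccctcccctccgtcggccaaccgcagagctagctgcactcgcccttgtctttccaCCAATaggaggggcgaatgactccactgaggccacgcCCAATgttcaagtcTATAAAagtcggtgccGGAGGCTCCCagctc
XPC, chr3:14178602-14178851, minus strand: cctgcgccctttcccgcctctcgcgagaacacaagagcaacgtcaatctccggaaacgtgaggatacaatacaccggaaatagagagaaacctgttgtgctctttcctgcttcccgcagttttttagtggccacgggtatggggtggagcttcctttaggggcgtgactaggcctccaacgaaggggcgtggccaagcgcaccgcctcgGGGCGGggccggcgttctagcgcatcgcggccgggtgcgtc
DDB2, chr11:47214204-47214453, plus strand: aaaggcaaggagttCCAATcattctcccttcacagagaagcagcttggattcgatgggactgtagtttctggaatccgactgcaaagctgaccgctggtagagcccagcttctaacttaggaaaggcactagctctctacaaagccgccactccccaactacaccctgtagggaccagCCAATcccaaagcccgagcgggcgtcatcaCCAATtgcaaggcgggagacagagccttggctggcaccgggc
The GADD45B window held an E-box at bases 83 to 88, an EGR match at bases 92 to 100, 2 CCAAT boxes, a TATA box at bases 220 to 225 and an NF-kappaB match at bases 236 to 245. The XPC window held a single GC box at bases 210 to 215, and the DDB2 window held 3 CCAAT boxes. Of 35116 windows of the same length, 6.34 percent held an E-box, 8.41 percent an EGR match, 10.7 percent a TATA box, 8.04 percent an NF-kappaB match, 32 percent a CCAAT box and 42.6 percent a GC box. None of these 3 windows held the p53 half-site, which 5.57 percent of the windows held, and that says only that these letters were not found there. Motif matches are descriptions and were tied to no measurement.

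Of the 13 probes, 11 probes of 8 genes were detected (detection p under 0.01) on at least 3 arrays and were tested. The levels below are log2 signals after background correction and quantile normalization. They were compared with limma over all 16016 probes that passed the same filter, and a difference was called at a Benjamini-Hochberg adjusted p under 0.05. Nothing in the labels says that replicate arrays came from separate cultures, so p-values measure only the spread between these arrays. GADD45A, on chromosome 1 (67685201 to 67688334), and XPC, on chromosome 3 (14145147 to 14178601), were detected on all 55 arrays by every probe they have. GADD45B, on chromosome 19 (2476127 to 2478257), was detected on 49 arrays, and DDB2, on chromosome 11 (47214454 to 47239217), on 28. The remaining detection counts were 31 and 0 for the 2 MDM2 probes, 55 and 30 for the RRM2B probes, 39 and 15 for the TP53INP1 probes, 7 for FAS and 1 for GADD45G. Between 11766 and 14763 of all probes were detected per array, array medians of raw signal ran from 44 to 75, and correlations between replicate arrays ran from 0.95 to 0.993. The array with the lowest mean correlation to its own group, 0.956, was replicate 3 of SCL60 triptorelin 8 h.

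Triptorelin raised GADD45A in SCL60 cells from 1 h onwards, and the rise was still present at 24 h. Probe ILMN_1694075 read 8.94, 9.18 and 9.09 in the SCL60 1 h controls and 9.83, 9.82, 9.67 and 9.97 after triptorelin for 1 h. Every treated array lay above every control array. The log2 difference was 0.75 (SE 0.16, 95% confidence interval 0.43 to 1.07, adjusted p = 0.00604). The other GADD45A probe, ILMN_2052208, read 9.19, 9.83 and 9.13 in those controls and 10.21, 10.00, 9.96 and 10.02 after triptorelin, a difference of 0.67 (SE 0.17) that missed the threshold (adjusted p = 0.0724). Same-numbered arrays of these groups deviated together, and with the replicate number as a block this probe passed as well (0.68, adjusted p = 0.0219). Without control replicate 2 the first probe no longer passed (0.69, adjusted p = 0.108), nor with only the groups compared (adjusted p = 0.0553), and without control replicate 3 the other probe passed (0.89, adjusted p = 0.00781).

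At 2 h GADD45A was at its highest group mean, 10.19 ± 0.20 (SD, n = 4) on ILMN_1694075 and 10.60 ± 0.28 on ILMN_2052208. The 4 arrays read 10.33, 9.93, 10.13 and 10.37 on the first probe, and 10.94, 10.66, 10.25 and 10.54 on the other. They lay above all 3 arrays of the 1 h controls on both probes, with differences of 1.12 (SE 0.16, adjusted p = 2.49e-06) and 1.21 (SE 0.17, adjusted p = 3.48e-06). The series has no 2 h control, so time and handling cannot be told apart from triptorelin in that comparison. The same holds at 0.5 h, which has no control of its own time either. The comparisons at 0.5, 1 and 2 h all share the 1 h control arrays.

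At 8 h, with controls of the same time, ILMN_1694075 read 8.73, 8.54, 8.58 and 8.57 in controls and 10.00, 9.85, 9.39 and 10.18 after triptorelin. On ILMN_2052208 the controls read 8.79, 9.00, 8.89 and 9.09 and the treated arrays 10.51, 10.24, 10.16 and 10.16. The groups did not overlap on either probe, and GADD45A rose 2.38-fold (log2 difference 1.25, SE 0.15, adjusted p = 3.22e-09) and 2.51-fold (1.33, SE 0.16, adjusted p = 9.17e-09). At 24 h the controls read 8.57, 8.30, 8.33 and 8.49 on the first probe, against 9.73, 9.40, 9.79 and 9.87 after triptorelin. The rise was 2.42-fold there (1.28, SE 0.15, adjusted p = 4.35e-09) and 2.23-fold on the other probe (1.16, SE 0.16, adjusted p = 4.96e-07). The effects at 8 h and 24 h did not differ detectably (24 h minus 8 h was 0.02 with an interval of -0.40 to 0.44 on ILMN_1694075, and -0.17 with an interval of -0.63 to 0.29 on ILMN_2052208). Within hybridisation batches 1 and 2 taken separately, the 24 h difference was 1.31 and 1.16 on the first probe and 1.26 and 0.85 on the other, and the 8 h difference was 1.25 and 1.35, and 1.25 and 1.57.

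In HEK293 cells no GADD45A difference passed the test after triptorelin. At 24 h ILMN_1694075 read 8.10, 8.11, 7.90 and 7.81 in controls and 7.97, 8.11, 8.07 and 7.87 after triptorelin, and the groups overlapped (difference 0.02, interval -0.27 to 0.32). The 1 h difference was 0.01 (interval -0.29 to 0.30) on that probe and -0.07 (interval -0.39 to 0.26) on the other. The 24 h effect in SCL60 exceeded that in HEK293 by 1.25 (SE 0.21, adjusted p = 4.54e-05) and 1.13 (SE 0.23, adjusted p = 0.00111) when the difference of effects was tested as a contrast of its own, in which 3.53 percent of all probes passed, 1.8 percent higher and 1.73 percent lower. The same contrast at 1 h gave 0.74 and 0.73, which did not pass (adjusted p = 0.368 and 0.738).

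**Figure D1:**
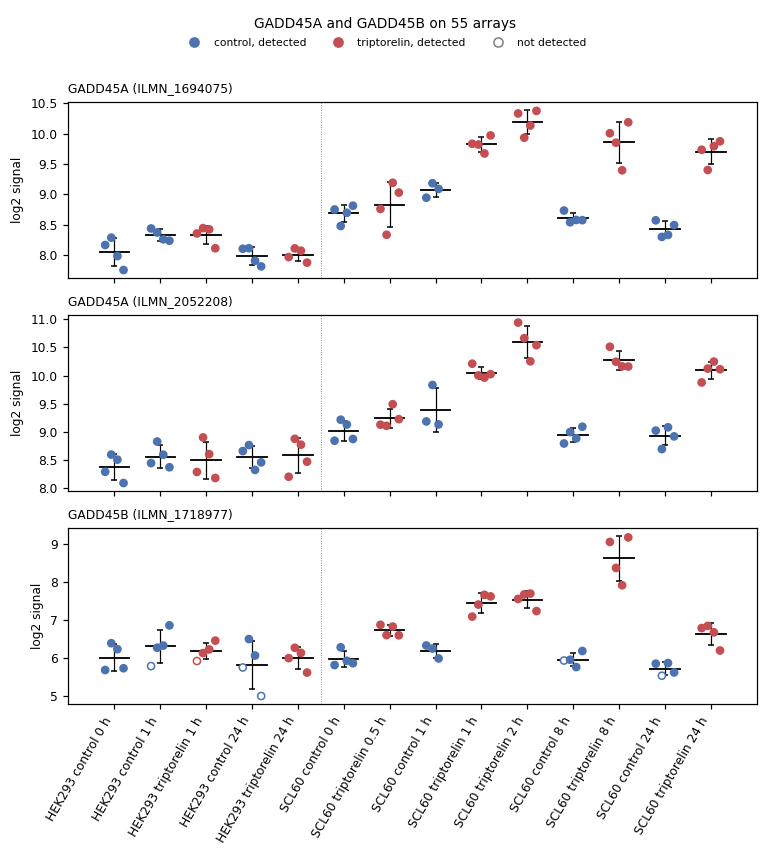
Log2 signal (vertical axes) of both GADD45A probes and of GADD45B on every array, by group (horizontal axis), with the mean (line) and SD (bar); filled points were detected and open points were not. On both GADD45A probes the SCL60 groups given triptorelin for 1 h or longer lie above all other groups, and GADD45B has its highest group mean, 8.62, after triptorelin for 8 h.

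GADD45B rose from 1 h onwards and had, at 8 h, the largest called difference among the 9 genes. Its probe read 6.33, 6.25 and 5.99 in the SCL60 1 h controls. After triptorelin it read 6.87, 6.60, 6.82 and 6.60 at 0.5 h, 7.09, 7.40, 7.66 and 7.62 at 1 h, and 7.55, 7.67, 7.69 and 7.23 at 2 h. None of these 3 treated groups overlapped with the controls. The 0.5 h difference was 0.53 (SE 0.25) and did not pass (adjusted p = 1), while GADD45B rose 2.38-fold at 1 h (1.25, SE 0.25, adjusted p = 0.00309) and 2.54-fold at 2 h (1.35, SE 0.25, adjusted p = 0.000487). The 1 h call was lost without control replicate 4 (1.15, adjusted p = 0.0568).

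At 8 h GADD45B read 5.93, 5.95, 5.76 and 6.18 in controls, the first of these undetected, and 9.04, 8.36, 7.91 and 9.16 after triptorelin. The treated arrays spread over more than a log2 unit, with replicate 3 the lowest, and all lay above all controls. The log2 difference was 2.66 (SE 0.23, interval 2.19 to 3.13, adjusted p = 5.17e-13), a rise of at least 6.13-fold once the undetected control was raised to the lowest detected signal of its array. By 24 h the controls read 5.85, 5.54, 5.87 and 5.62, the second undetected, and the treated arrays 6.78, 6.84, 6.67 and 6.20. GADD45B was then at least 1.74-fold higher (0.91, SE 0.23, adjusted p = 0.00663), with no overlap. Within hybridisation batches 1 and 2 the difference was 2.62 and 2.99 at 8 h, and 0.90 and 0.93 at 24 h.

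The effect on GADD45B at 8 h exceeded that at 1 h by 1.41 (SE 0.34, adjusted p = 0.00657), in a contrast that 5.33 percent of probes passed, 2.39 percent higher and 2.94 percent lower. From 8 h to 24 h the effect fell by 1.76 (SE 0.33, adjusted p = 0.000734), in a contrast that 2.68 percent passed, 1.47 percent higher and 1.21 percent lower. GADD45A did not pass in either contrast (8 h minus 1 h gave 0.50 and 0.66, adjusted p = 0.184 and 0.0956), but with the replicate number as a block ILMN_2052208 passed in the first (0.65, adjusted p = 0.0474). In HEK293, GADD45B read 5.79, 6.27, 6.33 and 6.86 in 1 h controls and 5.92, 6.13, 6.23 and 6.46 after triptorelin, which overlapped (-0.13, interval -0.59 to 0.34). The HEK293 difference at 24 h was 0.18 (interval -0.29 to 0.64). The SCL60 effect exceeded the HEK293 effect by 1.38 at 1 h (SE 0.34) without passing (adjusted p = 0.0775), although it passed with the replicate number as a block (1.40, adjusted p = 0.0391). That number was not taken to pair the arrays in HEK293 after triptorelin at 1 h or 24 h. At 24 h the excess was 0.73 (SE 0.33, adjusted p = 0.274).

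Ordered by group mean, GADD45B was highest in SCL60 after 8 h of triptorelin (8.62), then at 2 h (7.53), 1 h (7.44), 0.5 h (6.72) and 24 h (6.62), with the 9 other groups between 5.72 and 6.31. Of the 13 pairs of neighbours in this order, only 2 did not overlap in their arrays, those after the 8 h and the 1 h triptorelin groups. For the brighter GADD45A probe 1 pair did not overlap, between SCL60 triptorelin 1 h (10.05) and SCL60 control 1 h (9.38). Over the 14 group means, the genes most like GADD45A by Pearson correlation were FHL2 (0.97), RASSF1 (0.96) and OLIG2 (0.96), and those most like GADD45B were SAT1 (0.96), BMP2 (0.95) and NOCT (0.95). GADD45A and GADD45B themselves correlated at 0.81. These groups share their cell lines and arrays, and the correlations are descriptions.

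GADD45G, the other family member, gave no measurable level. Its probe was detected on 1 of 55 arrays, replicate 2 of SCL60 triptorelin 24 h, where it read 5.52. The other 3 arrays of that group read 5.33, 4.90 and 4.90, not detected, and the main fit did not test the probe. At 24 h the treated arrays all lay above the controls (difference 0.44), and at 8 h the groups overlapped (0.42). No control array of either time detected it, so no fold or direction is read from these values. With dim probes kept, 6 member probes passed at 8 h in place of 5, 4 of them higher.

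XPC, which recognises the distorted helix, fell after 8 h of triptorelin in SCL60. It read 9.19, 9.35, 9.75 and 9.69 in controls and 8.64, 8.35, 9.03 and 8.50 after triptorelin. The groups did not overlap, and XPC was 1.82-fold lower (-0.87, SE 0.22, interval -1.30 to -0.43, adjusted p = 0.00238). At 24 h the controls read 9.39, 9.15, 9.79 and 9.95 and the treated arrays 8.20, 8.87, 9.37 and 9.36, which overlapped. That difference was -0.62 (SE 0.22) and just missed the threshold (adjusted p = 0.0599), but it passed with the replicate number as a block (adjusted p = 0.00165). It also passed without SCL60 control 24 h replicate 2, triptorelin 24 h replicate 3 or triptorelin 24 h replicate 4 (adjusted p of 0.0264 to 0.0309). With a block for labelling batch, chip or hybridisation batch it passed too (adjusted p = 0.00189, 0.0384 and 0.0407). Each replicate number was lower after triptorelin than in its own control, and within hybridisation batches 1 and 2 the 24 h difference was -0.43 and -1.19, against -0.93 and -0.80 at 8 h. At 0.5, 1 and 2 h the differences were -0.13, -0.14 and -0.39, none called. In HEK293 they were -0.19 at 1 h and 0.17 at 24 h. The 24 h effect differed between the lines by -0.80 (SE 0.31, adjusted p = 0.167), which passed with the replicate number as a block (adjusted p = 0.00941). The replicate number was not taken to pair the HEK293 arrays of that contrast.

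DDB2, the lesion-binding subunit of the UV-DDB complex, was dim. At 24 h it read 6.16, 5.51, 6.14 and 6.56 in SCL60 controls, replicate 2 undetected, and 5.30, 4.99, 5.28 and 4.73 after triptorelin, all undetected. Every treated array lay below every control, and the control was at least 1.37-fold higher (fitted difference -1.02, SE 0.24, adjusted p = 0.00325). The difference was -1.07 and -0.86 within hybridisation batches 1 and 2. At 8 h the controls read 5.57, 5.62, 5.46 and 5.57 and the treated arrays 5.47, 5.39, 5.45 and 4.90, which overlapped (-0.25, SE 0.24, adjusted p = 0.486). Control replicates 1 and 3 and all treated arrays were undetected. The 8 h controls were themselves lower than the 24 h and 0 h controls, at 5.56 ± 0.07 against 6.09 ± 0.43 and 6.17 ± 0.16 (SD, n = 4 each), a comparison that was not tested. In HEK293 the DDB2 differences were -0.14 at 1 h and -0.09 at 24 h. The 24 h effect differed between the lines by -0.93 (SE 0.34, adjusted p = 0.146), and with the replicate number as a block it passed (adjusted p = 0.0484). Here too that number was not taken to pair the HEK293 arrays. Over the 14 group means DDB2 and XPC correlated at 0.81, and DDB2 was most like EPHX2, DEPTOR and C1QTNF6 (0.95, 0.95 and 0.94), and XPC most like BABAM2, NPTX1 and CEP192 (0.96, 0.95 and 0.95).

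TP53INP1 differed mainly between the lines. On its brighter probe, ILMN_1714108, the 0 h controls read 7.04, 6.97, 6.34 and 7.01 in HEK293 and 6.06, 5.80, 5.13 and 5.98 in SCL60. On ILMN_2214197 they read 5.92, 6.11, 6.18 and 6.03 in HEK293, and 4.77, 5.22, 5.06 and 4.95 in SCL60, where no array of any group detected it. The lines did not overlap on either probe, and SCL60 was lower by at least 2.00-fold on the first (-1.10, SE 0.22, adjusted p = 0.000139) and at least 1.4-fold on the other (-1.06, SE 0.19, adjusted p = 4.86e-05). The 24 h controls gave differences of -1.02 (adjusted p = 0.000434) and -0.85 (adjusted p = 0.00104). By group mean on the brighter probe, all 5 HEK293 groups, from 6.83 to 6.97, stood above all 9 SCL60 groups, from 5.26 to 6.01.

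After 24 h of triptorelin, TP53INP1 in SCL60 read 5.28, 5.29, 5.57 and 4.90 on the brighter probe, all undetected, against 6.14, 5.90, 5.87 and 5.89 in controls. The groups did not overlap and the control was at least 1.24-fold higher (-0.69, SE 0.22, adjusted p = 0.0316). The other probe gave -0.20 (SE 0.19, adjusted p = 0.636), on arrays that did not detect it. The call on the brighter probe held in 9 of 19 alternatives, and was lost when SCL60 control 24 h replicates 1, 3 or 4 or triptorelin 24 h replicates 1, 2 or 4 were left out one at a time (adjusted p of 0.0509 to 0.126). The difference was -0.40 at 8 h (adjusted p = 0.176) and 0.00 (interval -0.43 to 0.44) in HEK293 at 24 h. TP53INP1 was most like TBX1, ZNF605 and CXCL12 over the 14 group means (0.99, 0.98 and 0.98).

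**Figure D2:**
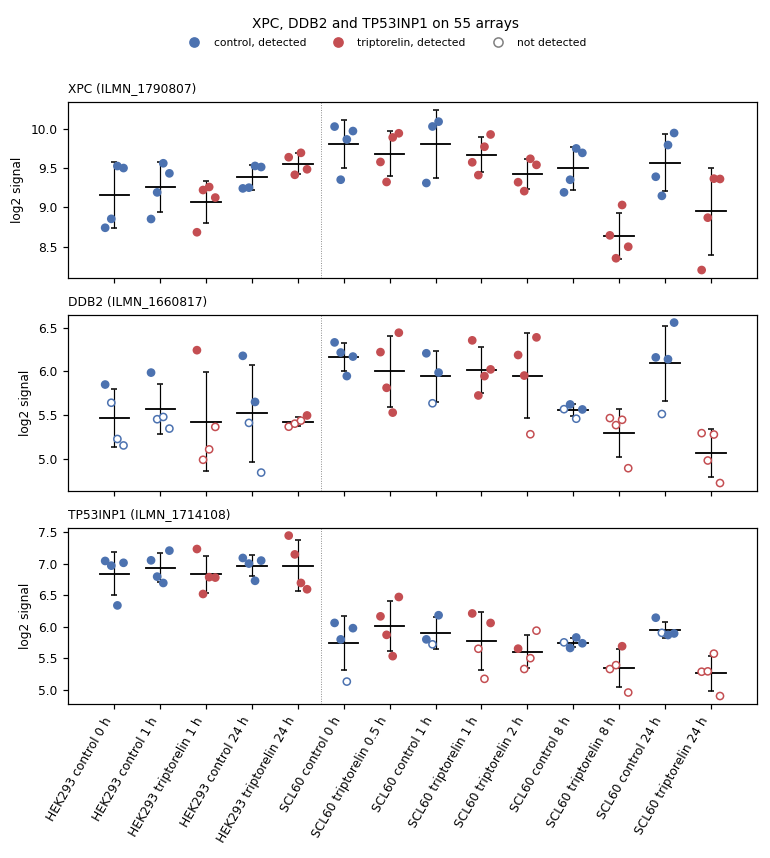
Log2 signal (vertical axes) of XPC, DDB2 and the brighter TP53INP1 probe on every array, by group (horizontal axis), with the mean (line) and SD (bar); filled points were detected and open points were not. XPC has its lowest group mean, 8.63, in SCL60 after triptorelin for 8 h, DDB2 is undetected on all arrays of SCL60 after triptorelin for 8 or 24 h, and the group means of TP53INP1 are all higher in HEK293 than in SCL60, with some overlap of single arrays.

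MDM2 passed in no comparison. Its measurable probe, ILMN_1736829, read 5.02, 5.34, 5.92 and 6.22 in SCL60 8 h controls, the first pair undetected, and 6.22, 5.75, 6.37 and 6.82 after triptorelin, all detected. Each treated array was above the control of the same number, but the groups overlapped, and the difference of 0.66 (SE 0.29) had an adjusted p of 0.0895. With the replicate number as a block it passed (adjusted p = 0.0242), as it did without control 8 h replicate 4 or triptorelin 8 h replicate 2 (adjusted p = 0.0408 and 0.0439). At 2 h it read 5.52, 5.63, 6.51 and 7.18 against 4.85, 5.76 and 5.59 in the 1 h controls, the first array of each group undetected. That difference was 0.81 (SE 0.31, adjusted p = 0.262) and passed with the replicate number as a block (0.87, adjusted p = 0.0459), while within hybridisation batches 1 and 2 it was 1.63 and -0.18. In HEK293 at 1 h, MDM2 read 4.73, 5.52, 5.08 and 5.08 in controls, all undetected, and 5.27, 6.17, 5.80 and 5.96 after triptorelin, replicates 2 and 3 detected (0.70, SE 0.29, adjusted p = 1). Its highest group means were 6.29 (SCL60 triptorelin 8 h), 6.21 (SCL60 triptorelin 2 h) and 6.06 (HEK293 triptorelin 24 h), and no neighbours in the order of 14 groups were separated. The probe ILMN_1814208 was detected on 0 of 55 arrays, and MDM2 was most like TMEM41B, CWC25 and DGKE (0.88, 0.87 and 0.87).

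RRM2B also passed in no comparison. Its bright probe, ILMN_1698231, read 7.68, 7.39, 6.95 and 7.50 in SCL60 24 h controls and 7.49, 6.98, 6.71 and 6.74 after triptorelin, with overlap (-0.40, SE 0.20, adjusted p = 0.245). At 8 h the difference was -0.11 (interval -0.51 to 0.30). In the 0 h controls it read 8.06, 7.68, 7.57 and 7.70 in HEK293 and 7.52, 7.38, 6.93 and 7.26 in SCL60. Those groups did not overlap, and the difference of -0.48 (SE 0.20) did not pass (adjusted p = 0.096). The dimmer probe gave -0.53 (adjusted p = 0.213). Between the 24 h controls of the lines the difference was only -0.07 on the bright probe (interval -0.47 to 0.34, adjusted p = 0.872). On the dimmer probe it was -0.27 there (adjusted p = 0.581). RRM2B correlated with TP53INP1 at 0.85 over the 14 group means and was most like MS4A1, MARCHF3 and TSPAN12 (0.93, 0.93 and 0.92).

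FAS was at the edge of detection. Its probe was detected on 7 arrays, all of SCL60. After triptorelin for 0.5 h it read 5.75, 5.31, 5.66 and 6.01, detected on 3 of 4 arrays. At 8 h it read 5.43, 5.49, 5.42 and 5.39 in controls and 5.01, 4.69, 4.65 and 4.69 after triptorelin, all undetected. The fitted difference passed (-0.68, SE 0.22, adjusted p = 0.0184), but neither group was detected, so no fold or direction is read from it. The call was lost without triptorelin 8 h replicate 3 (-0.64, adjusted p = 0.0511). FAS was most like H2AC25, PSMD10 and APH1B (0.92, 0.91 and 0.91).

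**Figure D3:**
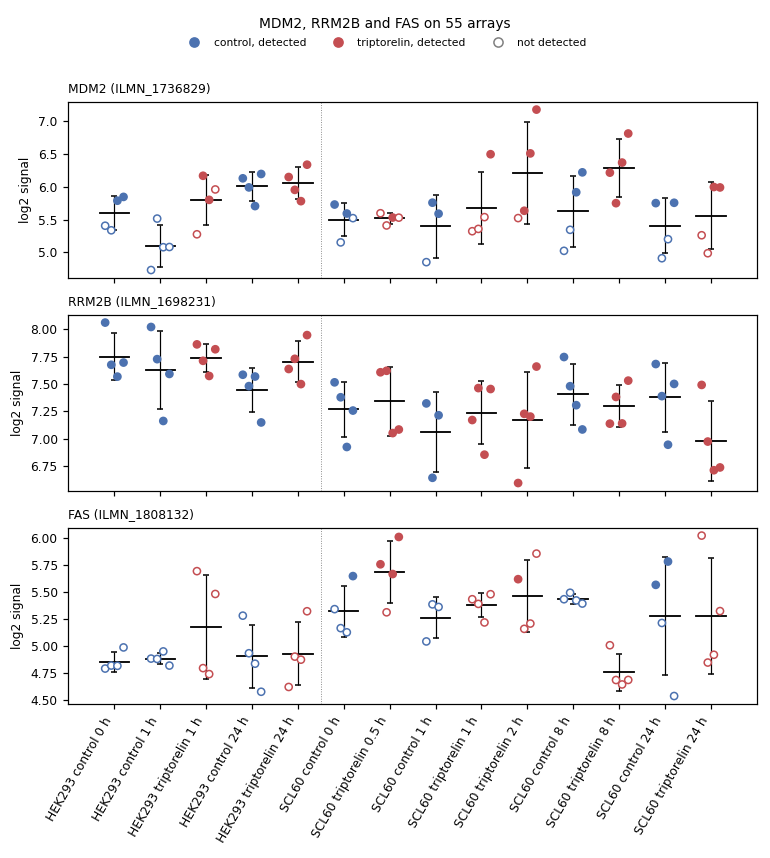
Log2 signal (vertical axes) of the measurable MDM2 probe, the brighter RRM2B probe and the FAS probe on every array, by group (horizontal axis), with the mean (line) and SD (bar); filled points were detected and open points were not. MDM2 and FAS mix detected and undetected arrays, and RRM2B was detected on all 55 arrays.

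Counted together, the 11 tested probes gave 0 calls in SCL60 at 0.5 h, where 0.0999 percent of all probes were called, and 2 called higher and none lower at 1 h, where 0.506 percent were called. At 2 h there were 3 called higher and none lower, where 1.31 percent of all probes were called, 0.962 percent higher and 0.35 percent lower. At 8 h there were 3 called higher, 1 called lower and FAS called with neither group detected, where 23.2 percent were called, 10.8 percent higher and 12.3 percent lower. At 24 h there were again 3 called higher and 2 lower, where 9.51 percent were called, 4.36 percent higher and 5.15 percent lower. The probes called higher at 2, 8 and 24 h were the 3 of GADD45A and GADD45B. Those called lower were XPC at 8 h, and DDB2 and TP53INP1 at 24 h. The median log2 difference of the 11 probes was 0.11, 0.12, 0.20, -0.17 and -0.20 at 0.5, 1, 2, 8 and 24 h, beside -0.00, -0.01, -0.02, -0.02 and -0.01 over all probes. Groups did not overlap for 1, 3, 3, 5 and 5 member probes, against 3.03, 3.28, 10.8, 19.3 and 12.3 percent of all probes. In HEK293 limma called 0 member probes at 1 h and 24 h, and 0 percent of all probes. At an unadjusted p under 0.05, 1 and 0 of the 11 passed, against 2.11 and 2.24 percent of all probes.

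**Figure D4:**
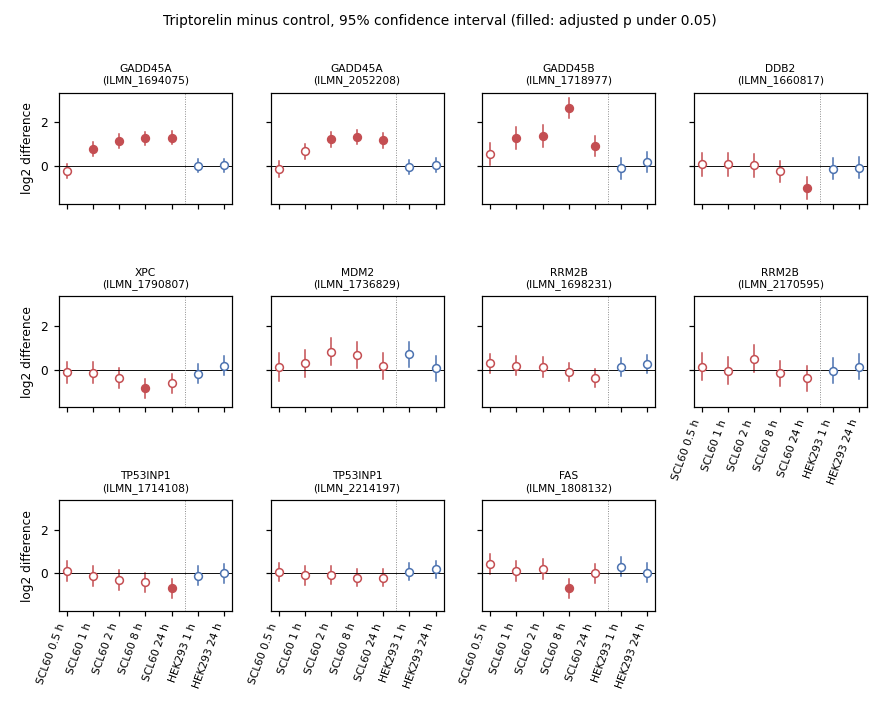
Log2 difference of triptorelin from control (vertical axes) with its 95% confidence interval for the 11 tested probes, by line and time (horizontal axes). Filled points passed at an adjusted p under 0.05. The 0.5 h and 2 h points are against the SCL60 1 h controls, as neither time has controls of its own. The 3 GADD45A and GADD45B panels stand above 0 from 1 h in SCL60 and cross 0 in HEK293, and the filled points below 0 are XPC at 8 h and DDB2 and TP53INP1 at 24 h; the point of FAS at 8 h, also filled, comes from groups that were not detected.

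Without triptorelin, 6 of the 11 probes differed between SCL60 and HEK293 at 0 h, where 18.3 percent of all probes did, 4 of them higher in SCL60 (10.4 percent of all probes) and 2 lower (7.93 percent). The lines did not overlap on 7 (23.1 percent of all probes). Besides TP53INP1, GADD45A was higher in SCL60 by 0.64 on both probes (SE 0.15 and 0.16, adjusted p = 0.00114 and 0.00294), with 8.75, 8.48, 8.70 and 8.81 against 8.16, 8.29, 7.98 and 7.75 on ILMN_1694075. DDB2 was at least 1.41-fold higher in SCL60 (0.70, SE 0.24, adjusted p = 0.0373), where all 4 arrays detected it, against 1 of 4 in HEK293. XPC was 1.57-fold higher (0.65, SE 0.22, adjusted p = 0.0285), with overlapping groups. The DDB2 call was lost when SCL60 control 0 h replicates 1, 2 or 4 or HEK293 control 0 h replicates 3 or 4 were left out one at a time (adjusted p of 0.0702 to 0.124), and with no filter on dim probes (0.0827). That of XPC was lost without SCL60 control 0 h replicates 1, 3 or 4 or HEK293 control 0 h replicates 1 or 2 (adjusted p of 0.0645 to 0.133), with no filter (0.0805) and with only the groups compared (0.0542). At 24 h 3 probes differed between control lines, where 17.5 percent of all probes did, 1 higher in SCL60 (9.63 percent of all probes) and 2 lower (7.82 percent), and 3 did not overlap (19 percent of all probes). GADD45A was then higher by 0.44 (adjusted p = 0.029) and 0.38 (adjusted p = 0.102). The first of these was lost when HEK293 control 24 h replicates 3 or 4 or SCL60 control 24 h replicates 1 or 4 were left out (adjusted p of 0.0681 to 0.101), with no filter (0.103) and with only the groups compared (0.094). DDB2 differed by 0.57 (adjusted p = 0.101) and passed without SCL60 control 24 h replicate 2 or HEK293 control 24 h replicate 1 (adjusted p = 0.0319 and 0.0239). XPC differed by only 0.19 between the 24 h controls (interval -0.25 to 0.62, adjusted p = 0.619), so its 0 h call was not repeated there. Controls at 1 h against 0 h gave no member call in either line, where 0.0187 percent of all probes passed in SCL60 and 0.00624 percent in HEK293. At an unadjusted p under 0.05, 2 of the 11 passed in SCL60 and 0 in HEK293, against 0.631 and 2.85 percent of all probes. GADD45A in the SCL60 controls was 0.39 higher at 1 h than at 0 h on ILMN_1694075 (interval 0.07 to 0.71, adjusted p = 1). Its other probe gave 0.37 (interval 0.02 to 0.72), and these GADD45A probes were the 2 that passed unadjusted. In the HEK293 controls the GADD45A differences were 0.28 (interval -0.02 to 0.57) and 0.19 (interval -0.14 to 0.51), neither called.

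Other known p53 targets moved both ways in SCL60. Of 29 listed genes 22 were tested, of which 4 rose and 3 fell at 8 h, and 3 rose and 4 fell at 24 h. Of all probes 10.8 percent were called higher and 12.3 percent lower at 8 h, and 4.36 and 5.15 percent at 24 h. Their median difference was -0.01 at 8 h and -0.16 at 24 h, beside -0.02 and -0.01 over all probes. At 8 h PMAIP1, which encodes the pro-apoptotic protein NOXA, rose by 1.65 (SE 0.26, adjusted p = 4.33e-06), and CDKN1A, the cyclin-dependent kinase inhibitor p21, by 1.42 (SE 0.31, adjusted p = 0.000575). SESN1, a stress-induced inhibitor of mTORC1, fell by 1.05, and BAX, a pore-forming apoptosis protein, fell by 0.79. At 24 h GDF15, a secreted stress cytokine, rose by 1.68 and SESN2 by 0.92, while SPATA18, a mitochondrial quality control gene, fell by 1.19 and SESN1 by 0.98. At 2 h only PMAIP1 passed (1.52). In HEK293 none of the 22 passed with limma at 1 h or 24 h, nor did any at an unadjusted p under 0.05. Of all probes 2.11 percent at 1 h and 2.24 percent at 24 h reached that unadjusted level. At such shares a list of 22 genes would often hold none, so this count says little about a response. Between the untreated lines at 0 h, 7 were higher in SCL60 (10.4 percent of all probes) and none lower (7.93 percent), led by SPATA18 (1.43), CDKN1A (1.08), TP53I3 (0.91) and PHLDA3 (0.66).

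Related lists of genes were read in the same way at 8 h and 24 h in SCL60, where 23.2 and 9.51 percent of all probes were called. Among regulators of p53, 12 of 15 were tested (median 0.09 at 8 h and -0.16 at 24 h), and the checkpoint kinase CHEK2 alone passed, falling by 0.64 at 8 h and by 0.70 at 24 h. Its other probe gave -0.58 and -0.76. Among binding and signalling partners of GADD45 proteins, 9 of 11 were tested (median 0.16 and 0.02). MAP2K6, the kinase that activates p38, fell by 1.56 at 8 h (SE 0.23, adjusted p = 1.11e-06) and by 1.12 at 24 h, and the DNA glycosylase TDG rose by 0.68 at 8 h on one probe and differed by 0.01 on the other.

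Among nucleotide excision repair genes other than XPC and DDB2, 28 of 30 were tested (median -0.13 at 8 h and 0.02 at 24 h). At 8 h 4 of the 28 fell and 1 rose, where 12.3 percent of all probes were called lower and 10.8 percent higher. Among those that fell were GTF2H5 and ERCC2 of the repair and transcription factor TFIIH (-0.75 and -0.56) and the scaffold XRCC1 (-0.63). GTF2H1 rose by 0.66 at 8 h on one probe, with 0.02 on the other. At 24 h 2 of the 28 fell and 0 rose, where 5.15 percent of all probes were called lower and 4.36 percent higher. The DNA ligase LIG1 fell by 0.88 (SE 0.17, adjusted p = 0.00021) and CUL4B, a scaffold of the ubiquitin ligase that works with DDB2, by 0.60, with -0.09 on its other probe. Of 8 genes of deoxynucleotide supply, all tested (median -0.04 and -0.13), the thymidine kinase TK1 fell by 0.54 at 8 h and none passed at 24 h. Of 12 genes of Fas signalling 8 were tested (median 0.19 and 0.10), and the caspase-8 inhibitor CFLAR fell by 0.95 at 8 h, with none called at 24 h.

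Markers of other cell types were read on the same arrays. Of the fibroblast markers COL1A2, COL3A1, DCN, LUM, PDGFRB and THY1 were detected on 0 of 55 arrays and COL1A1 on 25, with a signal of 37.5 to 64.0 in SCL60 8 h controls and 32.2 to 54.8 after triptorelin, and of the blood cell markers PTPRC, CD3E and HBB were detected on 0. The summed normalised signal of CD68 and CD14, the 2 blood cell markers tested, ran from 147.9 to 199.6 in SCL60 8 h controls and from 232.1 to 312.2 after triptorelin, and from 133.7 to 178.9 and from 258.9 to 328 at 24 h. Of the epithelial markers, KRT19 (-0.86) and CDH1 (-0.65) fell and KRT8 rose (0.56) at 8 h, with summed signals of 4095 to 5172 in controls and 4278 to 5731 after triptorelin. EPCAM rose by 0.53 at 24 h, with sums of 4196 to 5217 and 4958 to 7072. NEFM, the only neurofilament gene called at 8 h, rose by 1.75. The sum over the 3 neurofilament genes ran from 1098 to 1951 in controls and from 3271 to 5420 after triptorelin. Over all 55 arrays NEFM read 9.73 to 13.99 in log2, NEFL 6.98 to 11.50 and NEFH 4.39 to 10.06. The sum is weighted to NEFM and gives no separate reading of NEFL or NEFH. Between the untreated lines at 0 h, KRT19 was higher in SCL60 by 5.17 and EPCAM by 2.00, while NEFH, NEFL and NEFM were lower (-4.77, -3.12 and -2.90). The part of any of these in the differences of the 9 genes was not tested. In such bulk samples a change in the share of cells and a change in RNA per cell cannot be told apart.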

How the data were processed

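The table of non-normalized signals deposited by the authors gives, per the file headers, a linear intensity and a detection p-value for each probe on each of 55 HumanHT-12 v3 arrays. The submitters' steps before it are not given in the sources used here. A second deposited table, of values normalized by the authors, was used as an alternative. In limma 3.58.1 (R 4.3.3) the intensities were background corrected (normexp, negative controls inferred from detection p-values, offset 16), brought to common quantiles and log2 transformed. A probe was tested where it was detected (p under 0.01) on at least 3 arrays, which left 16016. The linear model held a mean for each of the 14 groups over the 55 arrays, with a trended variance, and p-values were adjusted over all 16016 probes. On simulated data the fit was checked for recovery of known changes. Where arrays of the lower group were undetected, folds are "at least" values, with undetected signals raised to the lowest detected signal of their array. The number of arrays limits the precision. Probe symbols came from the platform annotation. Of all probes 28098 had 1 symbol, 13 several and 20692 none.

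The 9 genes, the other gene lists and the promoters printed were chosen with earlier results of these data known. All 9 genes are named, with up to 4 called genes of largest difference from each other list in a comparison and the 3 genes most like each measurable gene. Motifs were searched in RefSeq promoters; entries for GADD45A, RRM2B and TP53INP1 were not used here. The replicate numbers of the labels were taken to pair the arrays where the deviations of every same-numbered pair correlated above 0.1. This held in all 5 SCL60 triptorelin comparisons and in both control comparisons of 1 h with 0 h (lowest 0.114). It did not hold in the other comparisons (lowest 0.0563), although single pairs there reached 0.687. Replicate numbers largely followed the labelling batches, so pairing and labelling batch cannot be told apart in these correlations. The main fit has no block.

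Alternatives were no background correction, the normalized table, cyclic loess, dim probes kept or filtered more strictly, 1 probe per gene, blocks for replicate number, labelling batch, chip and hybridisation batch, only the groups compared, other 0.5 and 2 h controls, and leaving out each array in turn.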

Additional observations from a re-analysis of the deposited data

Results flagged for a closer look

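In 5 of 143 sets of replicate arrays, a set being 1 probe in 1 group of 4 arrays, a single array stood apart by Dixon's test at its 95% critical value, and chance alone gives about 1 in 20. DDB2 read 4.90 on replicate 4 of SCL60 triptorelin 8 h, against 5.39 to 5.47 on the other 3 arrays. TP53INP1 (ILMN_1714108) read 6.34 on replicate 3 of the HEK293 0 h controls, against 6.97 to 7.04, and 6.14 on replicate 1 of the SCL60 24 h controls, against 5.87 to 5.90. FAS read 4.99 on replicate 4 of the HEK293 0 h controls, against 4.79 to 4.82, and 5.01 on replicate 1 of SCL60 triptorelin 8 h, against 4.65 to 4.69, all below detection.

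Effects that differed between lines or times by a limma contrast were those on GADD45A and GADD45B. The 24 h effect of triptorelin on GADD45A was larger in SCL60 than in HEK293 by 1.25 on ILMN_1694075 and 1.13 on ILMN_2052208. The effect on GADD45B in SCL60 was larger at 8 h than at 1 h by 1.41, and the value of 24 h minus 8 h was -1.76.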

How the results depend on the processing

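The rises of GADD45A and GADD45B at 2, 8 and 24 h, the fall of XPC at 8 h and that of DDB2 at 24 h stayed past the threshold in every alternative in which they were fitted, and no called difference changed sign. The number of member probes called moved by over 1.5 times as follows; the cause was not tested. For the excess of the SCL60 over the HEK293 effect at 1 h, with 0 called, it was 1 with the authors' normalized values, cyclic loess or a block for replicate number, chip or labelling batch. In SCL60 at 1 h it fell from 2 to 1 with 1 probe per gene, where fewer probes were tested, or with only the groups compared. For control lines at 24 h it went from 3 to 1 with 1 probe per gene and to 5 with the replicate block. For the line difference of effects at 24 h it went from 2 to 1 with 1 probe per gene and to 4 with the replicate block. For 8 h minus 1 h it went from 1 to 3 with the replicate block and to 2 with a block for chip or labelling batch. Smaller moves under settings that kept all arrays gave 2 to 4 for 3 at 2 h, 4 to 6 for 5 at both 8 h and 24 h, and 4 to 7 for 6 between lines at 0 h. Leaving out 1 array gave 1 to 3 at 1 h, 4 to 6 at 8 h, 4 to 6 at 24 h, 4 to 5 for the lines at 0 h, 2 to 4 for the lines at 24 h and 0 to 1 for the 1 h difference of effects, and no change elsewhere.

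The replicate block changed member calls in the other paired comparisons only as given above. In the line comparisons, which share only a number, it added RRM2B at 0 h (-0.48, adjusted p = 0.0322), and DDB2 (0.57, adjusted p = 0.0408) and MDM2 (-0.60, adjusted p = 0.0494) at 24 h. It added XPC to the 8 h minus 1 h contrast (-0.79, adjusted p = 0.0105).

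Counts over all probes moved by over 1.5 times in these cases. Leaving out 1 array took 81 at 1 h to 51 (SCL60 control 1 h replicate 2 or 4) or 52 (triptorelin 1 h replicate 1), 210 at 2 h to 110 (control 1 h replicate 4) and 853 for 8 h minus 1 h to 514 (control 1 h replicate 2), and gave 0 to 5 for 3 and 0 to 3 for 1 in the SCL60 and HEK293 controls at 1 h. The replicate block gave 462 for 210 at 2 h, 2673 for 1523 at 24 h, 4299 for 2796 between control lines at 24 h, 1178 for 566, 1843 for 853 and 1127 for 429 in the 24 h, 8 h minus 1 h and 24 h minus 8 h differences of effects, and 6 for 3 and 7 for 1 in SCL60 and HEK293 controls at 1 h. The labelling block gave 365 at 2 h, 2287 at 24 h, and 888 and 721 in the first and last of these differences. Only the groups compared gave 6 for 16, 48 for 81, 86 for 210, 1928 for 3712 and 722 for 1523 at 0.5, 1, 2, 8 and 24 h, 300, 430 and 118 in the 3 differences, and 0 in both control comparisons. No filter gave 368 and 523 in the first pair of differences and 1 for 0 in HEK293 at 1 h. The 0 h controls gave 29 for 16 at 0.5 h, and the mean of 0 and 1 h controls gave 31 there and 489 at 2 h. HEK293 controls at 1 h had 2 to 4 for 1 under 6 further settings. Signals near background limit DDB2, MDM2, TP53INP1 and FAS.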
